A study of Mus musculus with 5 samples.

Results

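Telocytes are PDGFRα-high mesenchymal cells that lie directly beneath the epithelium of the gut. In the normal colon stroma library they were selected as cells with at least 1 unique molecular identifier (UMI, 1 captured transcript) of Pdgfra and at least 3 UMIs over Wnt5a, Foxl1, Bmp5, Bmp7, Sox6 and Procr. These 7 genes are called the gate genes here. Of 1095 cells kept in this library, 100 passed the gate, which was 9.13% (exact 95% binomial interval 7.49 to 11.0). All 5 libraries of the series together held 8491 kept cells.

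The stroma library came from the colon of untreated wild-type (WT) mice. By the study's methods, mice were 6 to 12 weeks old when experiments began and were C57BL/6J or of a mixed C57BL/6J;129 background, without saying which applied to this library. Crypts were first shaken off after chelation with EDTA and DTT, and the remaining lamina propria and stroma was digested with collagenase and dispase and passed over a Percoll step before inDrop encapsulation. The other 4 libraries held colon tumors of WT mice given AOM/DSS, a carcinogen followed by an agent that causes colitis. These mice were treated with 3 cycles of Irinotecan followed by 5-FU, and tissue was harvested after the last cycle. Tumors were taken at days 1 (2 libraries), 3 and 6 post-treatment. There was 1 stroma library, which the study's methods count as n = 1 without a number of mice, so no comparison below has a test between animals. Poisson intervals (on pooled counts) and binomial intervals (on shares of cells) are at 95%, exact, and cover counting error only.

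Colon epithelium renews from stem cells at the crypt base and is shed at the surface. Stromal cells hold this axis in place: WNT ligands, R-spondins and BMP antagonists support the crypt base, whereas BMP ligands promote differentiation toward the top. Telocytes are long, thin cells known as a source of WNT and BMP ligands for the epithelium, and FOXL1 is the transcription factor through which they were first marked in the mouse gut.

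Values of the gate genes describe the selection and are no finding. Members held 717 UMIs of Pdgfra, the receptor for PDGF-A, with 1, 6 and 32 UMIs in the lowest, median and highest cell. Procr, an endothelial protein C receptor, had UMIs in 90 of the 100 members and Wnt5a, a non-canonical WNT ligand, in 81. Bmp7 was seen in 65 and Sox6, a SOX family transcription factor, in 44 members. Foxl1 was sparse, with 35 UMIs in 24 members, and so was Bmp5, with 26 UMIs in 22 members. No single gene besides Pdgfra was seen in every member. Most members had UMIs of 2 (26 cells), 3 (27 cells) or 4 (22 cells) of the 6 summed genes, 6 cells had only 1 of them and 4 cells had all 6. Of the 24 members with Foxl1, 21 also had Wnt5a and 22 had Procr. Fibroblast-like cells outside the gate also carried Pdgfra, at 495 CPM against 2151 CPM in members. CPM is the count of a gene in pooled cells per 1000000 UMIs of those cells.

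**Figure D1:**
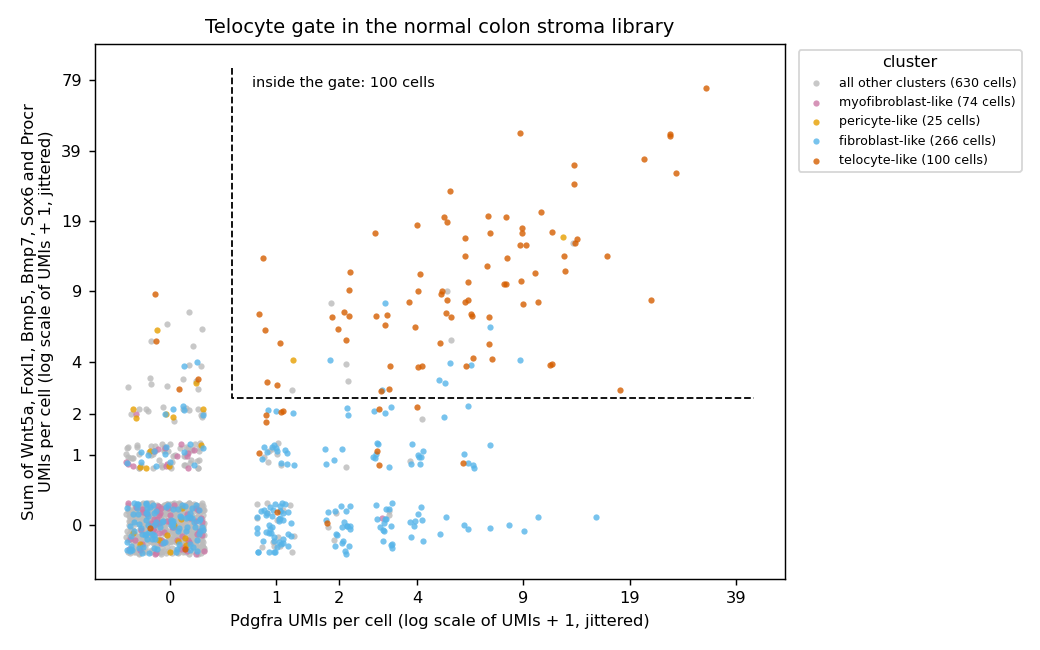
Each point is 1 of the 1095 kept cells of the normal colon stroma library, with its Pdgfra UMIs on the x axis and the sum of the 6 other gate genes on the y axis (both as UMIs + 1 on a log scale, jittered), coloured by cluster. The dashed lines bound the gate, which holds 100 cells, 82 of them in the telocyte-like cluster (orange).

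The label was checked by clustering the cells without the gate genes and naming clusters from marker lists. Of the members, 82 fell in 1 cluster of 100 cells, and all 6 telocyte markers (Pdgfra, Wnt5a, Foxl1, Bmp5, Bmp7 and Procr) were raised in it. These markers are gate genes too, so the name is not independent of the selection, whereas the grouping of the cells did not use them. A further 11 lay in fibroblast-like (9 cells) or pericyte-like (2 cells) clusters. The last 7 lay outside the mesenchyme, 4 in the columnar epithelial-like cluster and 1 each in the goblet-like, the macrophage-like and an unnamed cluster led by Clca3b and Nxpe2. Members in mesenchymal clusters had a median of 2367 UMIs, whereas the 7 others had a median of 5616. Transcripts of 12 measured columnar epithelial markers made up a median of 0.0521% of UMIs (range 0 to 0.400%) in the 93 members of mesenchymal clusters. In the 7 others the median was 1.77% (range 0.0386 to 2.99%). Scrublet, a doublet caller, marked 1 of these 7 and none of the 93, and 5 of the 7 were among the 70 cells with the highest scores. Whether these 7 barcodes held 2 cells was not tested. They contributed 15.6% of the members' UMIs, so each result is given for all 100 members or for the 93 as stated, and genes are called higher or lower below from the 93 unless stated.

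Cells just inside and outside the gate were few. Of 10 members with exactly 3 UMIs over the summed genes, 5 lay in the telocyte-like cluster, and of 17 cells with Pdgfra and 2 UMIs, 6 did. Of 8 members with a single Pdgfra UMI, 6 lay in that cluster, and of 22 cells with at least 3 UMIs of the summed genes but no Pdgfra, 4 did. In all, 18 cells of the telocyte-like cluster missed the gate. Their median depth was 1061 UMIs, and they carried 1261 CPM of Pdgfra and 1027 CPM of Procr. Markers of other lineages were counted over all members. The T cell list (8 genes) and the B cell list (5 genes) had 0 UMIs, Kdr, Flt1, Egfl7 and Emcn of 8 endothelial markers were at 0, and so were Sox10 and Gfap among 7 glial markers. The 8 endothelial markers summed to 54.0 CPM, against 89.0 CPM in other mesenchymal cells, and the 7 glial markers to 138 CPM against 117 CPM. The 6 plasma cell markers, immunoglobulins among them, summed to 1116 CPM against 2608 CPM. Per cell, their medians were 1019 CPM in members and 1280 CPM in other mesenchymal cells, and the highest of the latter held 453101 CPM. Of the barcodes of members, 2 also occurred in a treated library, out of 50 for the whole stroma library.

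Pooled counts of the members (333322 UMIs) were compared with those of the 372 other mesenchymal cells (1011568 UMIs), that is, all other cells of fibroblast-like, myofibroblast-like, pericyte-like and telocyte-like clusters. A gene is called higher or lower when the log2 fold of CPM, with 20 CPM added to both sides, reached 1 and the Poisson intervals did not overlap. Gate genes were left out, and at least 20 UMIs over both groups were required. Over all 100 members 8226 genes were compared, of which 357 were higher (4.34%) and 332 lower (4.04%). Over the 93 members in mesenchymal clusters 8030 genes were compared, of which 243 were higher (3.03%) and 311 lower (3.87%). Both versions shared 188 higher and 278 lower genes. Of the 169 genes higher only when the 7 cells were included, 160 had at least 2 times the CPM in columnar epithelial-like cells that they had in the other mesenchymal cells. The same held for 19 of the 188 genes higher in both versions and for 10.6% of all genes compared. Among the 20 highest genes over all 100 members, 9 were of this kind: Sprr2a1, Sprr2a2, Sprr2a3, Aqp8, Saa1, Muc3, Lypd8, Tgm3 and Car4. Sprr2a1, a cornified envelope protein gene of the epithelium, stood at 2148 CPM over the 100 members and at 128 CPM over the 93, against 169 CPM in the other mesenchymal cells. All 12 measured columnar markers were higher over the 100 members, and none of the 10 compared was higher over the 93.

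**Figure D2:**
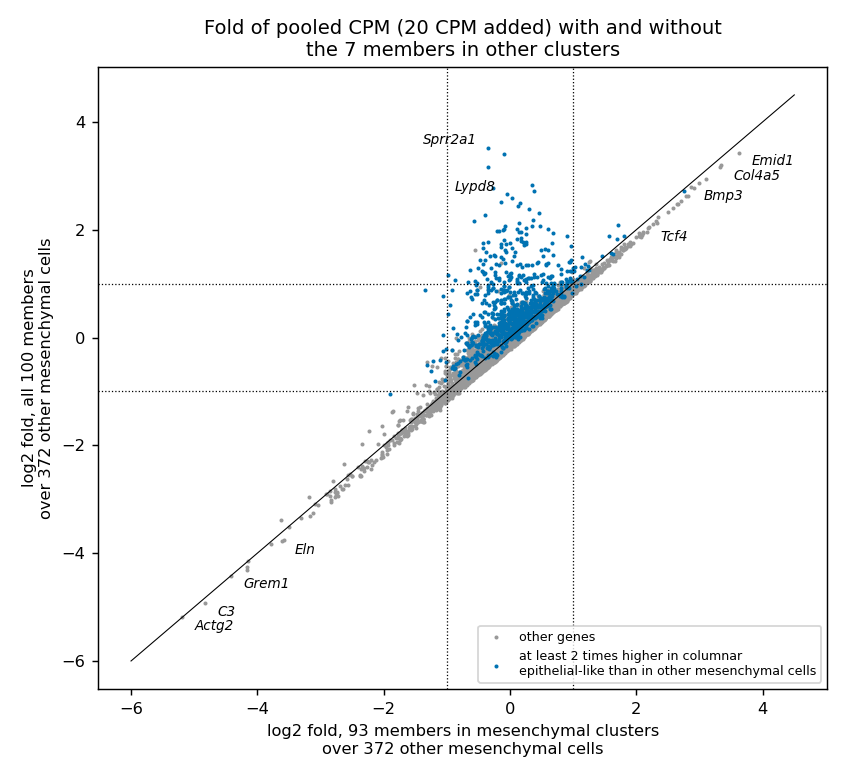
Each point is a gene, with its log2 fold (20 CPM added) in the 93 members of mesenchymal clusters on the x axis and in all 100 members on the y axis, both over the same 372 other mesenchymal cells. Genes of the columnar epithelium (blue), such as Sprr2a1, lie above the diagonal, where only the y axis includes the 7 members in other clusters, whereas Emid1, Col4a5, Grem1 and Actg2 lie near it.

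The highest gene over the 93 members was Emid1, an EMI domain matrix protein, at 910.2 CPM (interval 802 to 1029) against 55.4 CPM (41.8 to 71.9) in the other mesenchymal cells. Its log2 fold was 3.63, and 74 of the 100 members had a UMI of it. Bean1 followed, at 242 CPM against 5.93 CPM, and Col4a5, a chain of basement membrane collagen, at 658 CPM against 47.5 CPM. Tmem158, a RAS-induced membrane protein gene, stood at 985 CPM against 96.9 CPM, and Aldh1a1, which makes retinoic acid, at 992 CPM against 108 CPM. After each cell was thinned to 1000 UMIs, Emid1 was seen in 54.2% of members (96 cells deep enough), 5.92% of other mesenchymal cells (321 cells) and 0.538% of columnar epithelial-like cells (186 cells). Unthinned, it was seen in 74% of members and 10.5% of other mesenchymal cells, at median depths of 2480 and 2097.5 UMIs.

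The rest of the 20 highest genes over the 93 members were Wisp1, Bmp3, Cybrd1, F3, Bmp2, Cxcl14, Tspan13, Ednrb, Fgf9, Basp1, Sema3f, Gja1, Ccdc3, Tcf4 and Cd44. Their log2 folds ran from 2.92 for Wisp1, a matricellular protein of the CCN family, down to 2.17 for Cd44, the hyaluronan receptor. Gja1, the gap junction protein connexin 43, stood at 608 CPM against 107 CPM, and Ednrb, an endothelin receptor, at 292 CPM against 29.7 CPM. Tcf4, a helix-loop-helix transcription factor, was the most widely seen of them, with a UMI in 96 of the 100 members and 1771 CPM against 375 CPM.

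These genes were not spread evenly over the members. Members in the telocyte-like cluster had UMIs of 6 to 19 of the 20 genes (median 11.5), and the 18 cells of that cluster that missed the gate had a median of 7.5 at their lower depth. The 11 members in other mesenchymal clusters had a median of 6 genes although their median depth was higher, at 4249 UMIs. Fibroblast-like, myofibroblast-like and pericyte-like cells outside the gate each had a median of 2. The 20 genes were chosen as the highest in members over these other mesenchymal cells, so that low median follows from the choice. The clusters were built from the same counts, so the medians by cluster describe the members and are no separate support for the label. Bmp3, Fgf9 and Tspan13 had 0 UMIs in those 11 members. Eln was the reverse, with 10 of its 12 UMIs in all members coming from the 11, and Mgp with 20 of 35.

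Gene lists are described from here on, and they were chosen with earlier results of these data known. Their counts stand beside 3.03% higher and 3.87% lower among all genes compared over the 93 members. BMP ligands differed by gene. Of 8 compared beside the gate genes, 2 were higher, 1 was lower and 5 were neither, with a median log2 fold of 0.41 over the 93 members against 0.03 for all genes compared. Bmp2, a ligand of the crypt top, was at 1013 CPM (899 to 1138) in the 93 members and at 132 CPM (111 to 157) in the other mesenchymal cells. It was also present in columnar epithelial-like cells, at 411 CPM. Bmp3, a BMP family member that can oppose other BMPs, was at 220.4 CPM in the members, 8.25 CPM in fibroblast-like cells and had no UMI in myofibroblast-like or pericyte-like cells. Bmp4, 1 of the 5 that were neither, was shared with other stroma. It was at 2613 CPM in members, 1959.9 CPM in fibroblast-like and 937 CPM in myofibroblast-like cells (log2 fold 0.65, below the threshold). Gdf10 had 0 UMIs in all members against 48.4 CPM in the other mesenchymal cells, 5.38-fold lower when the members are set at a floor of 3 counts.

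BMP antagonists went both ways. Of 9 compared, 3 were lower, 2 were higher and 4 were neither. Grem1, the gremlin that marks crypt-base stroma, had 0 UMIs in all 100 members and in the 18 telocyte-like cells that missed the gate. It stood at 407 CPM (369 to 449) in the other mesenchymal cells, with 439 CPM in fibroblast-like and 452 CPM in myofibroblast-like cells. Members were 45.3-fold lower when set at a floor of 3 counts. Chrdl1 (21.7 CPM in the other mesenchymal cells) also had 0 UMIs in members. Twsg1, a BMP-binding modulator, was higher, at 619 CPM against 154 CPM. Fst, follistatin, was rare, with 19 UMIs in 5 members and 1 UMI in the 372 other mesenchymal cells, in a telocyte-like cell that missed the gate. Of 8 BMP response genes compared, none was higher and 3 were lower over the 93 (Id4, Bambi and Hey1). Id1, a direct BMP target, was at 402 CPM against 219 CPM (log2 fold 0.82), and was called higher only with the 7 cells included.

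WNT ligands other than the gate gene Wnt5a were few. Of 3 compared, none passed, with Wnt4 at 452 CPM against 233 CPM (log2 fold 0.90) and Wnt5b at 121 CPM against 85.0 CPM. Wnt4 was seen in 45 of the 100 members and stood at 314 CPM in fibroblast-like and 19.4 CPM in myofibroblast-like cells. Rspo3, an R-spondin that amplifies WNT signals at the crypt base, had 0 UMIs in members against 54.4 CPM in the other mesenchymal cells. Members were 6.04-fold lower when set at a floor of 3 counts. Among 4 secreted WNT inhibitors compared, Sfrp1 and Sfrp2 were lower over the 93. Sfrp1 was at 139 CPM in members against 1110.2 CPM (1046 to 1177) in the other mesenchymal cells (log2 fold -2.83). Of the 39 UMIs of Sfrp1 in members, 28 came from the 11 members in other mesenchymal clusters.

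Hedgehog ligands of the epithelium act on the mesenchyme, and 11 genes of that response were compared. Ptch1, the receptor and a target, was higher over the 93, at 747 CPM against 331 CPM, with a log2 fold of 1.13. Over all 100 members its log2 fold was 0.90, below the threshold. Foxf2, a forkhead factor of gut mesenchyme, was higher too, at 270.2 CPM against 101 CPM. Hhip, the hedgehog-binding inhibitor, was lower, at 42.7 CPM against 1098 CPM. Its level in the other mesenchymal cells came mainly from myofibroblast-like cells, at 5129 CPM, whereas fibroblast-like cells had 72.9 CPM. Gas1 and Boc, co-receptors of PTCH1, were also lower, and Gas1 had 0 UMIs in members. Gli1, at 17.8 CPM against 27.7 CPM, passed in neither direction.

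**Figure D3:**
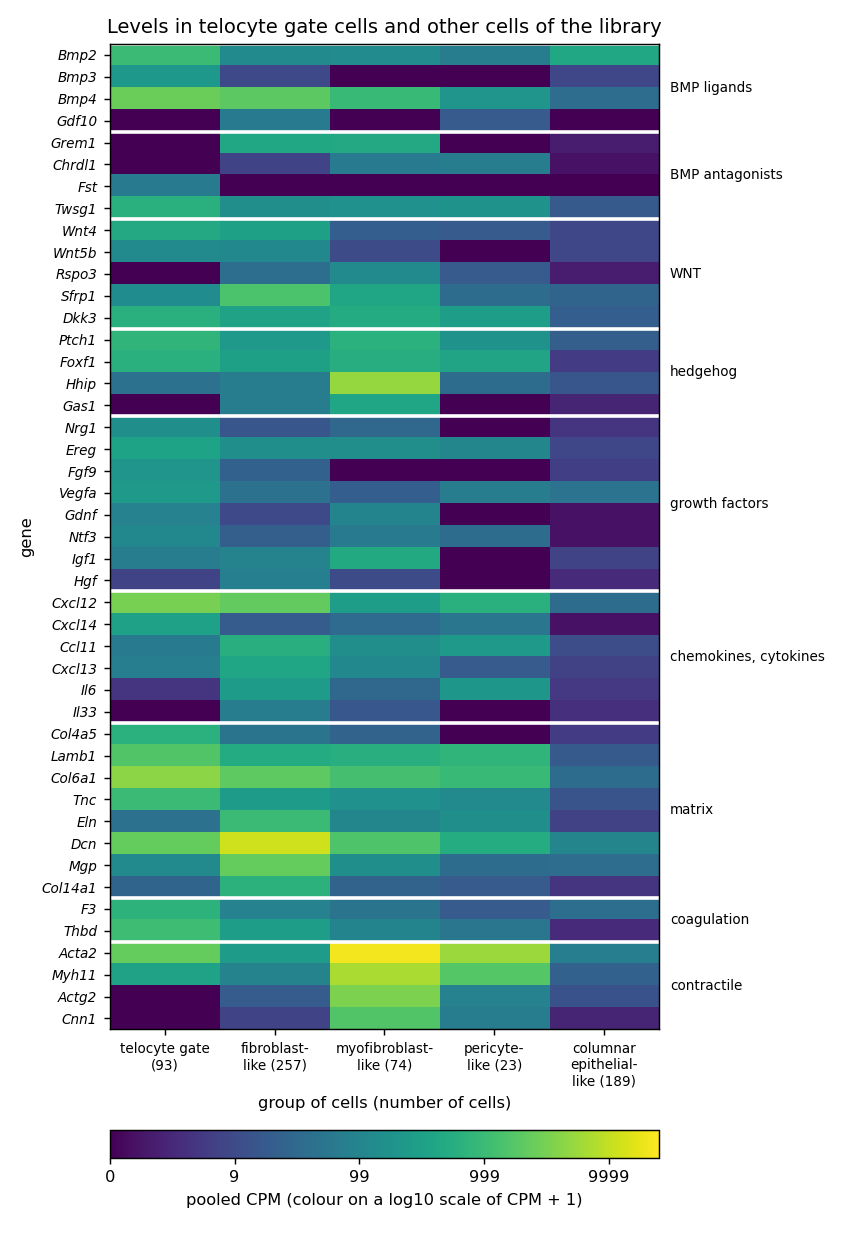
Pooled CPM of selected genes (rows, grouped by role) in the 93 telocyte gate cells of mesenchymal clusters and in non-member fibroblast-like, myofibroblast-like, pericyte-like and columnar epithelial-like cells (columns, with the number of cells), coloured on a log10 scale of CPM + 1. Bmp2, Bmp3, Fst, Nrg1, Fgf9, Cxcl14, Col4a5 and F3 are brightest in the first column among the mesenchymal groups, and Grem1, Rspo3, Gas1, Il33, Actg2 and Cnn1 are at 0 there.

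Ligands of receptor tyrosine kinases formed the next set. Of 4 EGF family ligands compared, 2 were higher over the 93 and none was lower. Nrg1, neuregulin 1, a ligand of ERBB3 and ERBB4, was at 156 CPM (114 to 210) in members against 21.7 CPM (13.6 to 32.9). Ereg, epiregulin, was at 352 CPM against 150.3 CPM, and 32 of its 110 UMIs in members came from the 11 members in other mesenchymal clusters. Areg and Hbegf were called higher only over the 100 members. Both were abundant in columnar epithelial-like cells, at 873 CPM and 1323 CPM. Of 20 ligands of the FGF, IGF, PDGF, VEGF, HGF and neurotrophic families compared, 4 were higher, 4 were lower and 12 were neither. Fgf9 was at 199 CPM against 18.8 CPM and Vegfa, the angiogenic factor, at 238 CPM against 41.5 CPM. Gdnf and Ntf3, factors for enteric neurons, were at 88.9 CPM and 110.2 CPM against 25.7 CPM and 32.6 CPM. The lower 4 were Igf1, Pdgfc, Vegfc and Hgf, with 2 UMIs each of Vegfc and Hgf and 0 of Pdgfc in members. The ratio of the other mesenchymal cells to members was 9.56 for Hgf, with a counting interval of 2.53 to 80.8.

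Chemokines and cytokines divided by gene. Of 16 compared over the 93, 4 were higher, 5 were lower and 7 were neither. Cxcl14, a chemokine for monocytes and dendritic cells, was at 324 CPM against 32.6 CPM. Ccl7 and Il34 were higher as well, and Il1rl1, the receptor ST2, had 19 UMIs in 7 members and 1 UMI in the other mesenchymal cells. Its ligand gene Il33 was at 0 in members and at 56.3 CPM in the other mesenchymal cells. Il6 had 1 UMI in members against 217, a ratio of 71.5 (12.7 to 2837). Ccl11, eotaxin, was at 67.6 CPM against 474 CPM, with 18 of its 21 UMIs in members from the same 11 cells, and Cxcl13, a B cell chemokine, at 74.7 CPM against 302 CPM. Cxcl12 was abundant in both members and fibroblast-like cells, at 3161 CPM and 2190 CPM, and its log2 fold of 0.84 was below the threshold. Of 10 prostaglandin genes compared, 4 were higher (Ptgs1, Ptgis, Hpgd and Pla2g4a) and none was lower. Ptgs1, the constitutive cyclooxygenase, was at 455 CPM against 123 CPM, and Ptgs2 was not past the threshold, at 715 CPM against 391 CPM.

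Matrix genes were both higher and lower, by gene. Of 14 basement membrane genes compared, Col4a5, Lama5 and Lamb1 were higher, and Lamb2 and Col15a1 were lower. Lamb1, a laminin chain, was at 1593 CPM against 555 CPM. Of 12 fibrillar and type VI collagens, 5 were higher and none was lower: Col27a1 and the type VI chains Col6a1, Col6a2, Col6a3 and Col6a4. Col6a1 was at 4380.3 CPM against 1856 CPM. The main interstitial collagens were not past the threshold, with log2 folds of 0.71 for Col1a1, 0.82 for Col1a2 and 0.28 for Col3a1. Among 39 other matrix genes compared, 6 were higher and 16 were lower, with a median log2 fold of -0.57. The higher ones were Tnc, Fn1, Ogn, Emilin1, Col12a1 and Col16a1. Tnc, tenascin C, was at 996 CPM (882 to 1119) against 253 CPM (223 to 286) and was seen in 70 of the 100 members. Elastic fibre genes were among the lower: Eln at 42.7 CPM against 745 CPM, Mfap5 with 2 UMIs against 356, and Mfap4 with 8 UMIs against 327 in all members. Dcn, decorin, was still at 2286 CPM in members but at 9236 CPM in the other mesenchymal cells, and Mgp, matrix Gla protein, was at 121 CPM against 1660 CPM.

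Proteases and inhibitors were lower in 9 of 22 genes compared and higher in 2, Mmp2 and Plau. Mmp2, a gelatinase, was at 1280.0 CPM against 504 CPM. Timp2, at 1788 CPM against 2009.8 CPM, passed in neither direction. Of 10 coagulation genes, F3 and Thbd were higher and Serpine2 was lower. F3, tissue factor, which starts coagulation, was at 686 CPM (593 to 790.1) against 82.1 CPM, and Thbd, thrombomodulin, which switches thrombin to protein C activation, was at 1077 CPM (959 to 1206) against 234 CPM. Procr, the receptor of protein C, was one of the gate genes, so its own level is set by the selection. Of 7 retinoid genes, Aldh1a1, Rbp4 and Rdh10 were higher, and Aldh1a3 was among the lower ones.

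Marker lists of other stromal cells were compared next. Of 16 markers of crypt-base and adventitial fibroblasts compared, 12 were lower, with a median log2 fold of -2.28 over the list. Pi16 and Ackr4 had 0 UMIs in members, Cd34 was at 81.8 CPM against 703 CPM with 19 of its 23 UMIs from the 11 members in other mesenchymal clusters, and C3, the complement component, had 4 UMIs in members against 966. Has1, a hyaluronan synthase, had 3 UMIs against 537, a ratio of 59.0 (20.1 to 287). The 2 higher genes of this list were Cxcl14 and Gpx3. Of 6 pericyte markers, Rgs5 was lower, Cspg4 was higher and 4 were neither, with a median log2 fold of -0.11. Of 17 genes of the contractile list, 7 were lower over the 93 (9 over all 100) and none was higher. That list also holds Hhip, the hedgehog inhibitor described above, which is counted among the lower genes in both versions. Actg2 and Cnn1, proteins of mature smooth muscle, had 0 UMIs in members. At a floor of 3 counts, members were 78.9-fold and 37.0-fold lower than the other mesenchymal cells. Acta2, smooth muscle actin, was not at 0, at 2318 CPM in members, 20716 CPM in myofibroblast-like, 5560.1 CPM in pericyte-like and 259 CPM in fibroblast-like cells. Members also stood between fibroblast-like and myofibroblast-like cells for Myh11, the smooth muscle myosin, with 345 CPM against 92.1 CPM and 7038 CPM, and 44 of the 102 UMIs in members came from the 11 members in other mesenchymal clusters. Mylk, myosin light chain kinase, was at 1237 CPM in members, 82.5 CPM in fibroblast-like and 6193 CPM in myofibroblast-like cells. The summed level of 8 myofibroblast and smooth muscle markers ran from 0 to 50855 CPM over single members of mesenchymal clusters, with a median of 3327 CPM.

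Transcription factors of gut mesenchyme went in both directions, with 8 higher, 8 lower and 25 neither of 41 compared over the 93. Higher were Foxf2, Tbx3, Nkx2-3, Tcf4, Snai1, Runx1, Sox4 and Etv1, and the lower ones included Foxp2, Zeb2, Nr2f2, Klf4, Ebf1, Maf and Osr1. Tbx3, a T-box factor, was at 220.4 CPM against 62.3 CPM, and Nkx2-3, a homeobox gene of gut and spleen mesenchyme, at 640.0 CPM against 305 CPM. Osr1 was at 64.0 CPM against 415 CPM. Foxf1, a hedgehog target in this tissue, was below the threshold, at 626 CPM against 368 CPM. Of 32 axon guidance and adhesion genes, 4 were higher (Sema3f, Efnb2, Cdh11 and Gja1) and 7 were lower, among them Nrp1 at 135 CPM against 685 CPM. Over all genes compared with the 93, 3.03% were higher and 3.87% were lower. Of 8 genes of a TGF-beta list that also holds receptors, binding proteins and Tgfbi, a TGF-beta-induced matrix protein, Tgfbi was higher. Tgfb3, Ltbp4 and Tgfbr3 were lower. Of 8 Notch genes, Dll1 was higher and Hey1 was lower. None of 18 early response and heat shock genes, which can rise during tissue digestion, was past the threshold in either direction.

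Within the members, clustering of the 82 cells in the telocyte-like cluster, again without the gate genes, gave 3 subgroups of 31, 30 and 21 cells. The genes that lead a subgroup defined it and are described without a test. The subgroups were built from the same counts, so all differences between them describe the split and are no separate support for it. Subgroup 2 (30 cells, median 1945.5 UMIs) had Ptgs2, Unc5b, Lama5, Nr4a3, Tbx3, Tnc, Ereg and Nrg1 among its leading genes. Ptgs2, the inducible cyclooxygenase, was at 2242 CPM (1888 to 2642) there, 44.4 CPM in subgroup 1 and 222 CPM in subgroup 3, and 22 of its 30 cells had a UMI. Nrg1 was at 458 CPM in subgroup 2, with 1 UMI in subgroup 1 and 102 CPM in subgroup 3. Tnc stood at 2510.1 CPM against 533 CPM and 491 CPM, and Tbx3 at 631 CPM against 59.2 CPM and 83.3 CPM. All 18 UMIs of Il1rl1 in these cells came from subgroup 2, and so did 18 of 19 UMIs of Fst.

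Bmp2 and Bmp3 differed between subgroups in opposite directions. Bmp2 was at 2478 CPM (2106 to 2898) in subgroup 2 and at 637 CPM and 667 CPM in subgroups 1 and 3. Bmp3 was at 78.9 CPM (25.6 to 184) in subgroup 2, 415 CPM (276 to 599) in subgroup 1 and 269 CPM (180 to 386) in subgroup 3. Bmp4 was at 3184 CPM, 2905 CPM and 2473 CPM in subgroups 1, 2 and 3. Wnt5a was at 2115 CPM (1772 to 2505) in subgroup 2 against 1022 CPM and 1000.1 CPM, while Procr was at 1405 CPM against 2636 CPM and 2102 CPM. Both are gate genes counted in 1 sum, so the selection bears on their levels and they give the split no support. Thbd, Aldh1a1 and Cxcl12 were lower in subgroup 2, with Cxcl12 at 1326 CPM against 4547 CPM and 3602 CPM. Subgroup 3 was deeper, at a median of 4809 UMIs, and had Rbp4 at 852 CPM against 489 CPM in subgroup 1 and 78.9 CPM in subgroup 2. The 18 early response and heat shock genes summed to 16218 CPM, 36799 CPM and 32458 CPM in subgroups 1, 2 and 3, and their part in the split was not tested. The split depended on the setting: with the gate genes kept, 26 of the 30 cells stayed together in a group of 29, whereas a resolution of 0.5 left all 82 cells in 1 group and a resolution of 1.5 gave 40 groups, of which the best match held 9 of the 30 cells.

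**Figure D4:**
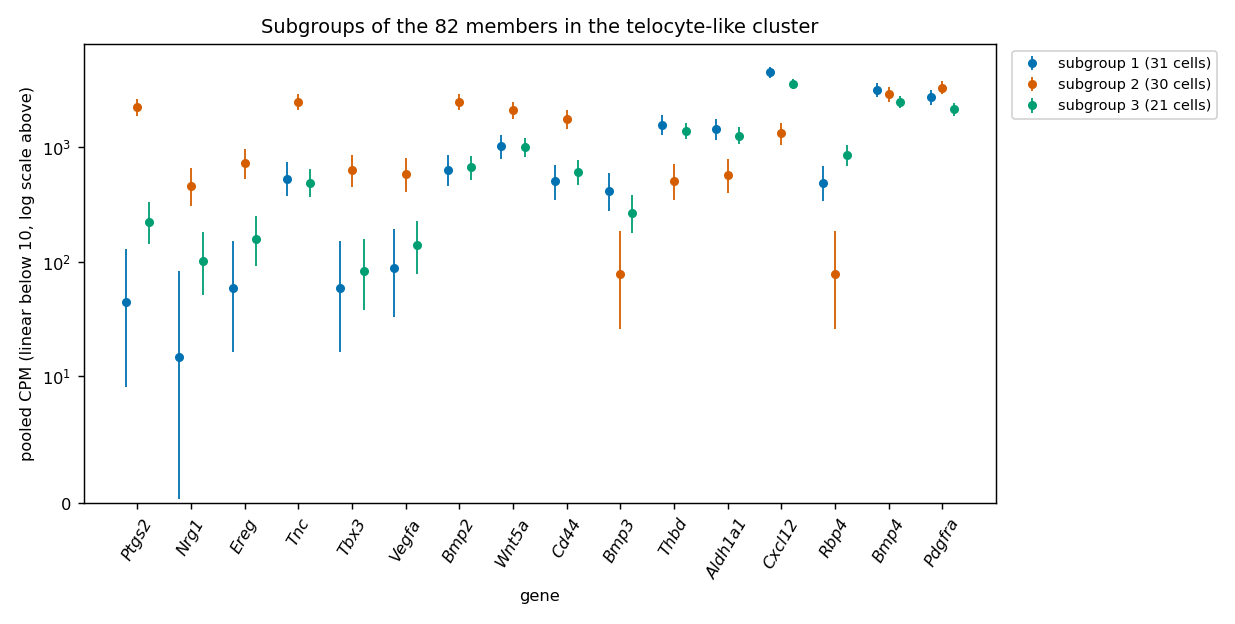
Pooled CPM of 16 genes (x axis) in the 3 subgroups of the 82 members in the telocyte-like cluster, with exact 95% Poisson intervals as bars and the y axis linear below 10 CPM and logarithmic above. Subgroup 2 has the highest Ptgs2, Nrg1, Tnc and Bmp2 and the lowest Bmp3, Thbd and Cxcl12, whereas the intervals of Bmp4 overlap between neighbours. The subgroups were built from the same counts, so the intervals are no test of the split.

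The same gate was applied to the 4 treated tumor libraries. It held 9 of 748 cells (1.20%, interval 0.552 to 2.27) and 21 of 2403 cells (0.874%, 0.542 to 1.33) at day 1, replicates 1 and 2, 3 of 1419 (0.211%, 0.0436 to 0.617) at day 3 and 6 of 2826 (0.212%, 0.0780 to 0.462) at day 6. These cells were deeper than the rest of their libraries, with median UMIs of 4683, 7884, 15544 and 7021 against 2895.5 to 3563.5 in other cells. Their gate genes stood lower than in the stroma members for Pdgfra and Procr. In the same order of libraries, Pdgfra was at 423, 506, 75.6 and 623 CPM, against 2151 CPM in the stroma members. Procr was at 0, 87.3, 208 and 46.1 CPM, against 1623 CPM. Whether they are the same kind of cell as the stroma members was not tested. After every cell was thinned to 1000 UMIs, 2 treated cells passed in all, both in day 1 replicate 2, whereas 57 of 1011 stroma cells (5.64%, 4.30 to 7.24) still did. Tumor, treatment and dissociation differ together between the stroma library and the others, the tumor dissociation kept the epithelial fraction, and day 1 replicate 1 and day 3 used another index structure and sequencer, so these cannot be told apart.

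Levels in gate cells of the treated libraries are given beside those of the stroma members, with no test. The gate cells of different libraries need not be the same kind of cell. Grem1, at 0 UMIs in the 100 members, had 12 UMIs (141 CPM), 75 UMIs (327 CPM) and 13 UMIs (299.9 CPM) in the gate cells of day 1 replicate 1, day 1 replicate 2 and day 6, and 0 UMIs at day 3. These UMIs came from 3 of 9, 12 of 21 and 2 of 6 cells. Mmp13, a collagenase, had 1 UMI in all stroma members (3.00 CPM) and stood at 2736 CPM, 3634 CPM and 9665 CPM in those 3 sets of cells. It came from 3 of 9, 18 of 21 and 1 of 6 cells, so that the value at day 6 is that of a single cell. Mmp10 was at 15 CPM in the stroma members and at 1268 CPM, 3699 CPM and 4775 CPM, and Il11, a cytokine of the IL-6 family, had 1 UMI in the stroma members and stood at 341 CPM, 995 CPM and 2007 CPM. At day 6, Mmp10 came from 2 and Il11 from 3 of the 6 cells. Of genes that were higher in the normal telocytes, some were rare in the treated gate cells and others were not. Col4a5 had 194 UMIs in the stroma members and 2 UMIs over all 39 treated gate cells, and Bmp3 had 69 UMIs and 2 UMIs. Thbd was at 957 CPM in the stroma members and between 11.7 CPM and 46.1 CPM in the treated libraries, and Emid1 had 264 UMIs in the stroma members and 8 UMIs, from 1 cell, over the treated gate cells. Cxcl12, which was not past the threshold in the stroma, was at 2892 CPM in the stroma members. It had 0 UMIs in the gate cells of both day 1 libraries and of day 3. In those of day 6 it was at 161 CPM (64.9 to 333), with 7 UMIs from 4 of 6 cells. Bmp2 was at 981 CPM in the stroma members and 564 CPM, 938 CPM and 807 CPM in the same 3 sets, and had 1 UMI at day 3. Tcf4 was at 1587 CPM in the stroma members and at 1374 CPM, 959.8 CPM and 554 CPM. F3 was at 612 CPM and at 106 CPM, 515 CPM and 415 CPM, and Cxcl14 was at 285 CPM and at 399 CPM, 175 CPM and 531 CPM. Cells outside the gate in these 3 libraries had 658 CPM, 839 CPM and 214 CPM of Tcf4. They had 65.5 CPM, 195 CPM and 34.1 CPM of F3, 8.67 to 19.8 CPM of Cxcl14 and 22.9 to 37.9 CPM of Bmp2. The 3 cells of day 3 had 0 UMIs of Col1a1 and Col3a1. Mesenchymal markers made up 0.181% of their UMIs, against 1.30% to 2.90% in the other treated gate cells and 3.81% in the stroma members, and columnar markers made up 1.38%.

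**Figure D5:**
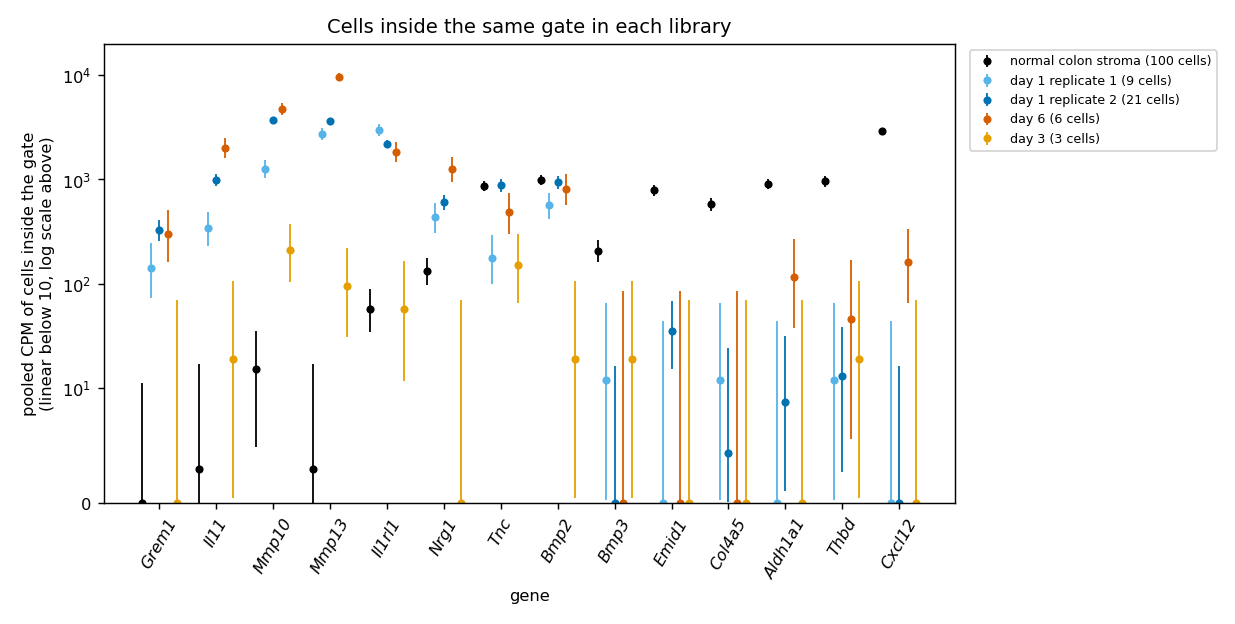
Pooled CPM of 14 genes (x axis) in the cells inside the gate in each library, with exact 95% Poisson intervals as bars and the y axis linear below 10 CPM and logarithmic above. Grem1, Il11, Mmp10 and Mmp13 lie at 15 CPM or below in the 100 stroma members (black) and above 100 CPM in both day 1 libraries and day 6, while Bmp3, Emid1, Col4a5, Thbd and Cxcl12 lie highest in the stroma members.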

How the data were processed

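The authors made these UMI counts with dropEst from inDrop reads aligned to mouse GRCm38.85, deposited as raw counts per gene and cell in 1 file per library without normalization. The stroma library held 5814641 UMIs in 1108 barcodes, and the treated libraries 5132360 to 16904947 UMIs. The study's stated limits for low quality (fewer than 500 genes, or more than 15% of counts from mitochondrial genes) were applied to these files and left 1095 stroma cells with a median of 3000 UMIs.

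Members and gene lists were chosen with earlier results of these data known. For clustering only, each cell was brought to 10000 counts on a log scale, and 20 principal components of 2000 variable genes, without the gate genes, were clustered over 20 nearest neighbours with leidenalg 0.10.2 at resolution 1 (igraph 0.11.9, scikit-learn 1.9.0, Python 3.11.15). A cluster took the name of the marker list with the highest mean log2 fold of at least 1 and at least 3 markers raised. The suffix -like is used since no protein or position was measured. Doublets were not removed. Scrublet in scanpy 1.11.5 called 7 of 1095 cells, and the study's methods name no doublet step. Raw UMIs were summed per group, with no test since there was 1 library per group. Named genes are the 20 highest and 12 lowest log2 folds among genes with at least 40 UMIs on the higher side, without gate, mitochondrial and ribosomal protein genes, and members of the lists. The rule was repeated over the 93 members in mesenchymal clusters, a choice made after seeing the data. The interstitial cell of Cajal and mesothelial list had Ano1 and Etv1 higher of 3 genes compared over the 93, with 1 UMI of Kit in all members. Genes of the lists that the stroma file does not name were not analysed here. Some list members are not reported here.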

Additional observations from a re-analysis of the deposited data

How the results depend on the processing

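The number of members moved by over 1.5 times under 1 of 9 alternatives, to 57 cells when each cell was thinned to 1000 UMIs before the gate, and otherwise lay between 76 and 117. The 357 higher and 332 lower genes became 178 and 162 with 50 CPM added in place of 20, and 46 and 70 at a log2 fold of at least 2. Under the other alternatives, including another gate threshold, leaving out cells with high Scrublet scores, fibroblast-like cells alone as the comparison and other clustering resolutions, the counts stayed within 1.5 times, at 243 to 487 higher and 246 to 379 lower genes. In the treated libraries the share of cells inside the gate moved from 1.20%, 0.874%, 0.211% and 0.212% to 0, 0.0832%, 0 and 0% after thinning. These moves follow from the settings themselves, since thinning removes UMIs and the other 2 raise the bar for a call. No paired analysis was possible because the stroma comparison rests on 1 library, and no replicate could be left out. Depth limits sparse genes: 0 counts over all members allow up to 9.0 CPM.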

Other observations

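The lowest genes over the members came from different neighbours in the stroma. Among the 12 lowest genes, Actg2, Cnn1 and Hhip were highest in myofibroblast-like cells, at 3400.0 CPM, 1593 CPM and 5129 CPM, while C3, Has1, Eln, Mgp, Col14a1, Cd55 and Il6 were highest in fibroblast-like cells. Grem1 and Mfap5 were present in both, with Mfap5 at 360.3 CPM and 447 CPM. The same 12 genes were the lowest over all 100 and over the 93 members, whereas only 11 of the 20 highest were shared.

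The 18 cells of the telocyte-like cluster that missed the gate also carried genes that the gate did not use. Their cluster was built from genes outside the gate, so this follows from the clustering and is no separate support for the label. They had 326.9 CPM of Bmp3, 374 CPM of Col4a5, 467 CPM of Cxcl14, 887 CPM of Tnc and 841 CPM of Ptch1, and 0 UMIs of Grem1 and Rspo3. They were shallow cells, with 21412 UMIs in all, so that 1 UMI is 46.7 CPM and 0 UMIs of Rspo3 say little.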
